A study of Mus musculus with 64 samples.

Results

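The 7 genes described here encode enzymes that make, break down or exchange asparagine, aspartate, glutamate and glutamine: *Asns*, *Asrgl1*, *Glul*, *Glud1*, *Got1*, *Got2* and *Gpt2*. They were taken by name from the 39017 genes of the count table, and all 7 passed the filter on low counts in each comparison. Sequenced RNA came from 8 mouse pancreatic tumor cell lines of mixed C57BL/6 background, which are 7 lines that each grew from 1 clone of KPC tumor cells (E, H, K, M, N, T and V) and the KPC1 line. KPC cells carry tumor alleles that include Trp53+/R172H, with a Cre recombinase driven by the *Pdx1* promoter, which is active in the pancreatic epithelium, so every line and control compared here shares this genotype. Of each line, 4 libraries were made after mono-culture and 4 after 48 h with fibroblasts, from which tumor cells were recovered by sorting for their green fluorescent protein (64 in total). Whether mono-cultured cells were sorted is not stated in the labels, nor that the 4 libraries of a line came from separate cultures, so p-values measure the spread between libraries or lines, which may be technical. The study describes the 7 clones as derived from 1 mouse tumor, so p-values over lines do not measure the spread between tumors. The study divides the clones by their metabolites into group 1, with E, H and V, and group 2, with the other 4 clones, while KPC1 belongs to neither.

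Asparagine is made from aspartate by asparagine synthetase (*Asns*), which takes its amide nitrogen from glutamine and releases glutamate. Glutamine is made from glutamate and ammonia by glutamine synthetase (*Glul*), and the transaminases *Got1* in the cytosol and *Got2* in mitochondria pass amino groups between glutamate and aspartate. *Gpt2* does the same between glutamate and alanine in mitochondria, *Glud1* releases ammonia from glutamate there, and *Asrgl1* hydrolyzes asparagine. *Asns* is a well-known target of *Atf4*, the transcription factor of the integrated stress response, which cells use when amino acids run short.

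Because *Asns*, *Got1* and *Gpt2* moved together in what follows, their upstream sequence was searched for the C/EBP-ATF response element, the type of site through which Atf4 acts, written TGATGNAAN and read on both strands. Windows of 300 bases (250 before the RefSeq start and 50 after it, build GRCm38.p6) held it in 3.95% of 32851 promoters, and among the 7 enzymes 1 match was found in *Asns*, 1 in *Got1* and none in the other 5. The match of *Asns* (chr6:7693224-7693232, minus strand) lies 15 bases before the RefSeq start and inside the GENCODE gene model, and is shown within chr6:7693214-7693242. That of *Got1* lies 95 bases before both starts, on the opposite strand, and is shown within the 250 bases before the start (chr19:43524606-43524855, minus strand). The 250 bases before the start of *Gpt2* (chr8:85492326-85492575, plus strand), which moved most like *Asns*, are shown beside them. Capitals mark the matches, which are matches of letters and not measured binding.
Asns: cccagccacaTGATGAAACttcccgcacg
Got1: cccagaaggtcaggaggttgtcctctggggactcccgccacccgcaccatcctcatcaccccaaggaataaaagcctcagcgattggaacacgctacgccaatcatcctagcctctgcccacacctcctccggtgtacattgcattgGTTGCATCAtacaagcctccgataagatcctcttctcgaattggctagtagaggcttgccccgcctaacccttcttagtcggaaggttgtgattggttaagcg
Gpt2: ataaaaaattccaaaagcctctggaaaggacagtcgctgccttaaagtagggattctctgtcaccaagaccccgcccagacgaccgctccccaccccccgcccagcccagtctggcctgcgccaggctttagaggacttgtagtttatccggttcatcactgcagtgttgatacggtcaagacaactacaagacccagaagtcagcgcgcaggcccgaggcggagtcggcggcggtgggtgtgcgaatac

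On GRCm38, the assembly behind the mm10 build named in the labels, *Asns* (ENSMUSG00000029752) spans chr6:7675169-7693254 and *Glul* (ENSMUSG00000026473) chr1:153899944-153909723. *Got1* (ENSMUSG00000025190, chr19:43499752-43524605) and *Asrgl1* (ENSMUSG00000024654, chr19:9109868-9135636) share chromosome 19, and *Gpt2* (ENSMUSG00000031700, chr8:85492576-85527560) and *Got2* (ENSMUSG00000031672, chr8:95864134-95888547) share chromosome 8. *Glud1* (ENSMUSG00000021794) spans chr14:34310727-34345265. All are annotated as protein coding. The pseudogenes Got2-ps1 and Glns-ps1 were given at most 10 and 13 counts in any library. How reads that match both a gene and a copy were counted is not stated, and their number was not measured.

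Library totals ran from 11178721 to 21333683 counts, and the lowest count of an enzyme in any library was 8, for *Asrgl1* in clone K, against at least 181 for the other 6. Libraries of the same line and culture were not duplicates of each other, with a chi-square per gene of at least 4.43 in each of 96 pairs. Defining epithelial markers (*Krt8*, *Krt18* and *Krt19*) summed to 2093 to 3488 CPM (read counts scaled to a common library size, with TMM normalization) over the mono-cultured lines and to 1396 to 3016 CPM after coculture, and of all 10 epithelial markers 5 were over 1 CPM in every line and 3 (*Epcam*, *Cldn4* and *Cldn7*) under 1 CPM in every line, in both cultures. Of 2 leukocyte markers measured, *Ptprc* stayed at or under 0.119 CPM, and *Cd68*, which marks macrophages, was at 3.88 to 18.5 CPM in mono-cultured lines and 11.7 to 40.9 CPM in cocultured ones. The part of *Cd68* in the responses was not tested. Of 20 fibroblast markers, 7 were over 1 CPM in every line in mono-culture and 17 in coculture. All 20 summed to 7126 to 19082 CPM in mono-cultured lines, of which *Vim* gave 3488 to 7165, and to 7943 to 17867 CPM in cocultured ones. The 6 defining markers (*Dcn*, *Fap*, *Postn*, *Thy1*, *Lum* and *Pdgfra*) reached 0.495 to 31.5 CPM in mono-cultured lines, where *Thy1* and *Lum* were at 0, and 69.6 to 147 CPM in cocultured ones. These markers thus moved with culture in every line, and their part in the responses below was not tested.

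Read per gene length, as the authors' RPKM, the order of the enzymes differed between the cultures. In mono-culture the median over the 8 line means was 85.5 RPKM for *Glud1*, 51.7 for *Asns*, 36.7 for *Glul*, 20.1 for *Got2*, 14.8 for *Got1*, 7.35 for *Gpt2* and 1.804 for *Asrgl1*. In coculture *Asns* came first at 166 RPKM, before *Glud1* (73.8), *Got1* (37.7), *Gpt2* (24.4), *Got2* (19.8), *Glul* (19.1) and *Asrgl1* (1.83). Neighbors in this order overlapped widely: the line means of *Got1* in mono-culture, from 10.9 to 31.8 RPKM, took in those of *Got2*, from 17.5 to 24.7.

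**Figure D1:**
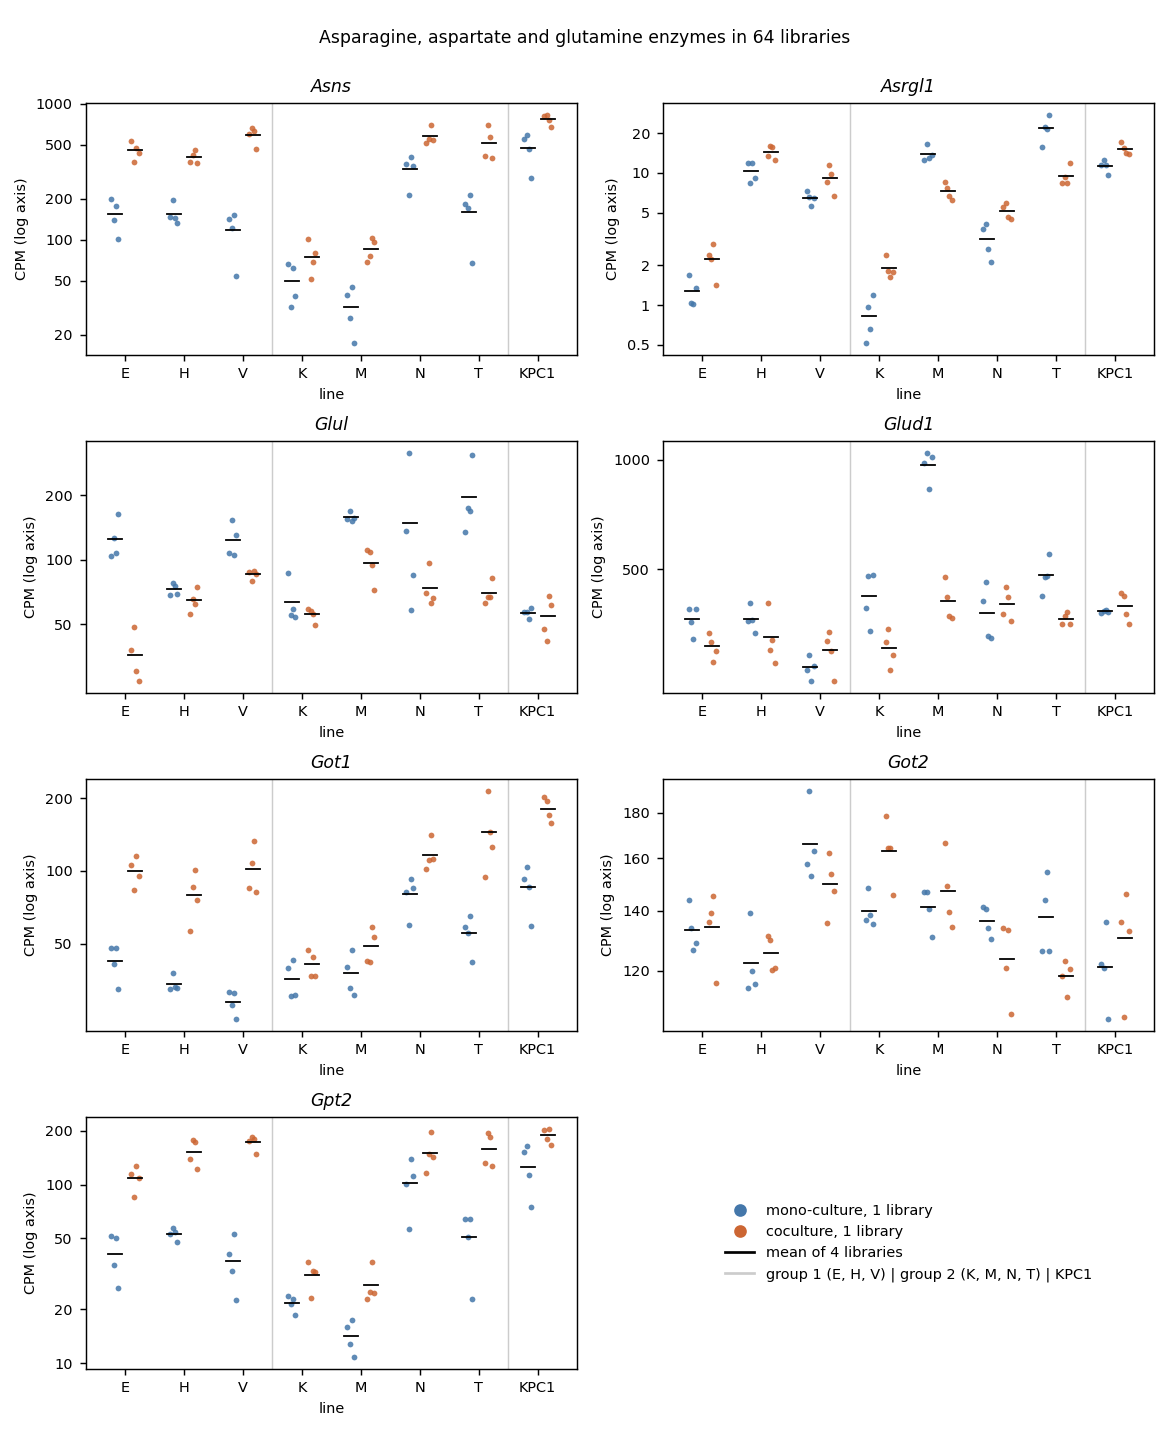
CPM of each enzyme gene (vertical log axis, 1 panel a gene) in the 8 lines (horizontal axis), with each point 1 library, blue for mono-culture and orange for coculture, and black bars the means of 4 libraries. *Asns*, *Got1* and *Gpt2* lie higher in coculture, with K and M lowest for *Asns* and *Gpt2*, *Glud1* stands out in clone M in mono-culture, and *Got2* stays between 106 and 190 CPM.

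The first question was how far the lines differ when grown alone. All 7 genes passed edgeR's quasi-likelihood F test for a difference between the 8 lines in mono-culture (adjusted p from 5.52e-18 for *Asrgl1* to 0.000380 for *Got2*), where 96.9% of all 13624 genes tested passed, so the size of the difference says more than the call. The highest line mean was 26.3 times the lowest for *Asrgl1*, 14.8 times for *Asns* and 8.87 times for *Gpt2*. It was 3.603 times for *Glud1*, 3.49 for *Glul*, 2.97 for *Got1* and 1.37 for *Got2*, against a median of 2.14 over 12014 genes with a mean of at least 1 CPM. Of the 49 pairs of lines next to each other in these orders, 9 did not overlap in their 4 libraries, or 6 of 49 in coculture. Over all genes 13.3% of such pairs did not overlap in mono-culture and 8.64% in coculture.

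*Asns* was lowest in clones M and K, which belong to group 2, and highest in clone N of that group and in KPC1. In mono-culture its 4 libraries were at 39.2, 26.5, 44.6 and 17.3 CPM in clone M and at 66.2, 31.9, 61.8 and 38.5 CPM in clone K. The group 1 clones lay between, with 142, 121, 152 and 54.5 CPM in V, 148, 195, 144 and 132 CPM in H, and 200.1, 139, 177 and 102 CPM in E. These 3 clones overlapped with each other and with clone T of group 2, at 184, 172, 214 and 67.4 CPM. Clone N reached 358, 212, 409 and 348 CPM and KPC1 547, 591, 464 and 286 CPM. The mean ± SD over 4 libraries was 31.9 ± 12.3 CPM in M, 49.6 ± 16.9 in K, 117 ± 43.8 in V, 155 ± 27.9 in H, 155 ± 43.3 in E, 159.6 ± 63.9 in T, 332 ± 84.4 in N and 472 ± 135 in KPC1. By mean log2 CPM, clones H and N were the 1 pair of neighbors whose libraries did not overlap. Clone T, at up to 214 CPM, did overlap with N, whose lowest library was at 212 CPM.

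*Gpt2*, the mitochondrial alanine transaminase, took almost the same order. In mono-culture it was at 15.9, 12.8, 17.4 and 10.8 CPM in clone M and 23.7, 21.5, 22.8 and 18.7 CPM in clone K, and these clones did not overlap. Line means were 37.3 ± 12.9 CPM in V, 40.9 ± 12.2 in E, 50.6 ± 19.4 in T, 53.01 ± 4.05 in H, 102 ± 34.4 in N and 126 ± 40.4 in KPC1 (SD, n = 4). *Got1*, the cytosolic aspartate transaminase, spread less: clones V, H, K, M, E and T had means from 28.8 to 55.5 CPM, below 80.1 ± 14.1 in N and 85.7 ± 19.03 in KPC1. Its mitochondrial counterpart *Got2* differed least, from 121 ± 12.3 CPM in KPC1 to 166 ± 16.7 in V.

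The glutamate and glutamine enzymes had other orders. *Glud1* was at 981, 1048, 833 and 1016 CPM in clone M, above every library of the other 7 lines, whose means ran from 269 ± 18.3 in V to 482 ± 51.9 in T. *Glul* ran from 56.4 ± 2.82 CPM in KPC1 to 197 ± 77.4 in T with no gap between neighbors. Its libraries spread widely in N, at 136, 318, 57.9 and 84.9 CPM, and in T, at 135, 175, 168 and 310 CPM. *Asrgl1* was close to silent in clones K (0.833 ± 0.300 CPM) and E (1.28 ± 0.324), between 3.15 and 13.9 in N, V, H, KPC1 and M, and highest in T (21.9 ± 4.84).

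The second question was how tumor cells differ after coculture with fibroblasts. Cocultured cells were sorted, and whether mono-cultured ones were is not stated. The contrast, called the response below, may thus hold an effect of sorting, which was not tested. In the fit over all 8 lines, which used the 16 sums of 4 libraries with the line as a covariate, *Asns*, *Gpt2* and *Got1* rose and *Glul* fell, so 3 of the 7 enzymes passed the threshold upward (adjusted p under 0.1) and 1 downward. Of the 16246 genes tested, 26.8% passed upward and 25.2% downward, so the count of 4 of 7 is near the background. The log2 fold change ± SE by edgeR's quasi-likelihood test was 1.32 ± 0.18 for *Asns* (adjusted p = 0.00105), 1.19 ± 0.19 for *Gpt2* (adjusted p = 0.00172), 0.99 ± 0.17 for *Got1* (adjusted p = 0.00241) and −0.74 ± 0.20 for *Glul* (adjusted p = 0.0145). *Glud1* (−0.27 ± 0.14, adjusted p = 0.135), *Asrgl1* (0.23 ± 0.26, adjusted p = 0.497) and *Got2* (0.0034 ± 0.061, adjusted p = 0.969) did not pass. The sign of *Got2* turned under other scalings, and the fall of *Glul* did not pass among the 18 libraries of 5 lines that form a second series of sample numbers (−0.35 ± 0.18). *Asns*, *Got1* and *Gpt2* had a higher mean in coculture in 8 of 8 lines, as did 14.8% of 14134 genes, and *Glul* had a lower one in 8 of 8, as did 12.1%. In these bulk samples, fewer cells with a transcript cannot be told apart from less of it per cell.

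All 7 genes differed between lines in their response (interaction of line and culture, edgeR's quasi-likelihood F test, adjusted p from 5.53e-11 for *Asrgl1* to 0.00769 for *Got2*), as did 71.3% of 14134 genes. Within the first series of sample numbers alone, the interaction of *Got2* did not pass (adjusted p = 0.437, same test). Tested line by line, 27 of the 56 pairs of enzyme and line were higher in coculture and 13 were lower, where 23.7% of all pairs of gene and line were higher and 21.9% lower. The ranges of 4 libraries did not overlap in 23 pairs that were higher and 9 that were lower, against 18.8% and 16.4% of all pairs.

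**Figure D2:**
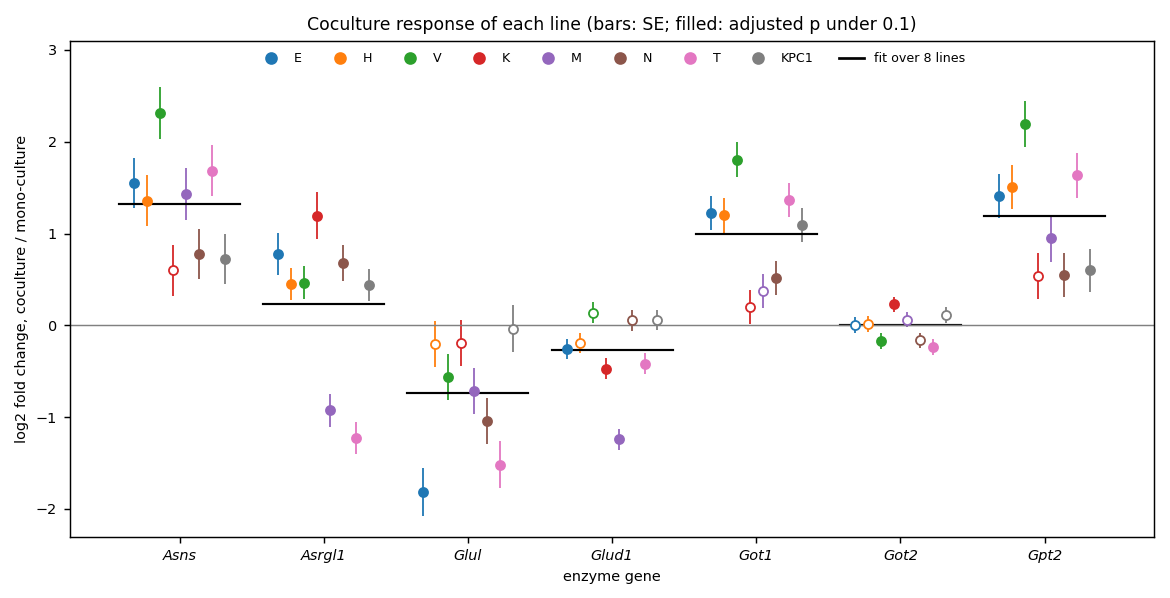
Log2 fold change of coculture over mono-culture (vertical axis) for each enzyme gene (horizontal axis), with 1 colored point a line, bars the SE, filled points those past an adjusted p of 0.1 and black lines the fit over 8 lines. Clone V is highest for *Asns* (2.31), *Got1* (1.802) and *Gpt2* (2.19), clone K is lowest for these 3, and *Asrgl1* is below 0 in clones M and T alone.

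*Asns* rose in 7 of 8 lines. In coculture clone V held 595, 669, 629 and 467 CPM, 5.03 times its mono-culture mean, with no overlap (log2 2.31 ± 0.28, adjusted p = 1.57e-09, edgeR's quasi-likelihood test). Clone T held 414, 695, 565 and 401 CPM, 3.25 times, and clone E held 535, 376, 473 and 435 CPM, 2.94 times. The cocultured libraries of clone M stood at 69.1, 75.4, 102 and 96.0 CPM, 2.68 times, and those of H at 374, 419, 456 and 364 CPM, 2.61 times. In these 5 lines, and in N and KPC1, every cocultured library lay above every mono-cultured one.

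The other 3 lines changed less, N and KPC1 from the highest levels in mono-culture and K from a low one. Clone N was at 519, 553, 695 and 542 CPM in coculture, 1.74 times its mono-culture mean, and KPC1 at 812, 833, 761 and 680 CPM, 1.63 times. Clone K, with 101, 51.6, 68.3 and 79.7 CPM, overlapped with its mono-culture and did not pass (log2 0.60 ± 0.28, adjusted p = 0.140, edgeR's quasi-likelihood test). In coculture the line means therefore fell into K (75.1 ± 20.6 CPM) and M (85.7 ± 15.97), a middle set from 403 in H to 590 in V (590.03 ± 87.2), and KPC1 (772 ± 68.5). The libraries of M and H, and those of V and KPC1, did not overlap. The middle set as a whole did overlap with KPC1: T and N reached 695 CPM, above the lowest library of KPC1 (680 CPM). The call in N was lost without replicate 2 (log2 0.64, adjusted p = 0.156) and that in KPC1 without replicate 3 (log2 0.73, adjusted p = 0.102, edgeR's quasi-likelihood test).

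*Gpt2* rose in 7 lines as well. Clone V went from 40.6, 32.7, 53.2 and 22.7 CPM in mono-culture to 176, 185, 181 and 148 CPM in coculture, a fold of 4.63. Clone T went from 64.4, 51.02, 64.1 and 22.9997 CPM to 133, 193, 184 and 127 CPM, and clone H from 52.9, 57.02, 54.6 and 47.5 CPM to 139, 177, 173 and 123 CPM. In these clones, and in E, M and KPC1, the cultures did not overlap. Clone M, lowest in both cultures, reached 22.9, 25.1, 36.7 and 24.9 CPM. KPC1 changed by 1.4996 times and clone N by 1.48 times, and clone K (1.45 times, log2 0.54 ± 0.25, adjusted p = 0.148, edgeR's quasi-likelihood test) did not pass. The call in KPC1 was lost without replicate 3 (adjusted p = 0.160) or 4 (0.118), and that in N without replicate 1 (0.112), 2 (0.388) or 3 (0.126).

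*Got1* rose in 6 lines, all of them without overlap. It went from 31.6, 27.9, 31.4 and 24.5 CPM to 85.3, 108, 133 and 81.7 CPM in clone V, a fold of 3.53, and from 58.96, 55.6, 65.3 and 42.1 CPM to 94.0, 215, 145 and 125 CPM in clone T, a fold of 2.61. Clone E changed by 2.35 times, H by 2.33, KPC1 by 2.11 and N by 1.45, and the call in N was lost without replicate 2 (log2 0.43, adjusted p = 0.134, edgeR's quasi-likelihood test). Clones M (1.30 times, log2 0.38 ± 0.19, adjusted p = 0.119) and K (1.15 times, log2 0.20 ± 0.19, adjusted p = 0.542) did not pass by the same test. *Got2* stayed within 0.861 and 1.17 times of its mono-culture mean in all lines. It passed upward in K (0.23 ± 0.085) and downward in T (−0.23 ± 0.085) and V (−0.17 ± 0.085), on the log2 scale, and each of these calls was lost without at least 1 replicate number.

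*Glul* moved the other way, and most in clone E, where it fell from 104, 126, 108 and 165 CPM to 37.7, 48.6, 30.3 and 27.02 CPM (log2 −1.81 ± 0.26, adjusted p = 6.51e-08, edgeR's quasi-likelihood test). In clone T the 4 cocultured libraries were at 62.4, 67.0, 66.7 and 82.4 CPM, below every mono-culture library, and the level was 0.353 times that of mono-culture. It also fell without overlap in M, from 154, 168, 152 and 157 CPM to 111, 108, 94.3 and 72.1 CPM, and in V, from 107, 154, 105 and 131 CPM to 87.6, 79.4, 88.3 and 86.1 CPM. Clone N passed as well (log2 −1.04 ± 0.25, adjusted p = 0.00132, edgeR's quasi-likelihood test), but its cocultured libraries, at 69.7, 96.1, 62.5 and 66.1 CPM, overlapped with mono-culture. Without replicate 2, which holds the mono-culture library at 318 CPM, the call in N was lost (log2 −0.50, adjusted p = 0.126), as it was in V (adjusted p = 0.181). Without replicate 4 it was lost in M (adjusted p = 0.130) and V (adjusted p = 0.102). In H, K and KPC1 the log2 fold changes were −0.20 ± 0.25, −0.19 ± 0.25 and −0.036 ± 0.25 and did not pass.

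*Glud1* and *Asrgl1* each had lines that stood apart. *Glud1* fell in clone M to 478, 421, 372 and 369 CPM, 0.423 times its mono-culture mean (log2 −1.24 ± 0.11, adjusted p = 5.97e-12, edgeR's quasi-likelihood test), and the 8 lines then spanned only 1.37 times between the lowest and the highest mean. It also fell in K (−0.47 ± 0.11), T (−0.42 ± 0.11) and E (−0.26 ± 0.11), the call in E being lost without replicate 4. *Asrgl1* fell in T, from 15.8, 22.4, 21.6 and 27.6 CPM to 8.34, 9.39, 8.33 and 11.8 CPM, and in M, from 12.5, 16.5, 12.9 and 13.7 CPM to 8.47, 7.74, 6.69 and 6.28 CPM. It rose in the other 6 lines, by 1.347 to 2.28 times, the highest in K, where its level stayed low (2.39, 1.82, 1.63 and 1.78 CPM). Of these 6 calls, 4 (E, H, V and KPC1) were lost without at least 1 replicate number.

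The last question was whether the metabolic groups differ in these enzymes. Between 3 group 1 and 4 group 2 clones in mono-culture, none of the 7 passed (0% of 14829 genes did), none had an unadjusted p under 0.05, where 766 genes did, and DESeq2 called none of the 7 either. Group 1 minus group 2 was 0.0020 ± 0.75 on the log2 scale for *Asns* (SE), −0.087 ± 0.64 for *Gpt2*, −0.56 ± 0.32 for *Got1* and −0.75 ± 0.35 for *Glud1*, with adjusted p from 0.888 to 1.00 by edgeR's quasi-likelihood test. The *Asns* means of group 1, from 117 to 155 CPM, lay inside those of group 2, from 31.9 to 332 CPM. The sign of the *Asns* difference turned on single clones: it was −0.32 without M and 0.84 without N.

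In coculture again none of the 7 passed between the groups by edgeR or DESeq2 (0.00679% of 14737 genes did by edgeR), and none had an unadjusted p under 0.05, where 1263 genes did. *Asns* was 0.62 ± 0.72 higher in group 1 on the log2 scale (adjusted p = 0.769, edgeR's quasi-likelihood test) and *Gpt2* 0.65 ± 0.64 higher (adjusted p = 0.728). The response to coculture was larger in group 1 by 0.61 ± 0.32 for *Asns*, 0.80 ± 0.29 for *Got1* and 0.77 ± 0.31 for *Gpt2*, and none passed (adjusted p = 0.6996, 0.662 and 0.662, edgeR's quasi-likelihood test), as 0.00618% of 16172 genes did. *Got1* and *Gpt2* were the 2 of 7 with an unadjusted p under 0.05 in that fit, where 1214 genes were, and DESeq2 called none of the 7. With only 7 clones, these fits have wide errors. On simulated data with known log2 changes of 1, the fits between the groups within 1 culture found almost none of them. The fit of the difference in response found a minority, so a count of 0 does not show that the groups are alike.

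*Asns*, *Gpt2* and *Got1* varied together, and with *Atf4*. Over the 8 line means of log2 CPM, Pearson's r of *Asns* with *Gpt2* was 0.990 in mono-culture and 0.982 in coculture, and with *Got1* it was 0.740 and 0.936. *Atf4* correlated with *Asns* at 0.971 and 0.991, with *Gpt2* at 0.966 and 0.978 and with *Got1* at 0.828 and 0.925. With *Glul* (−0.26 and −0.24) and *Got2* (−0.44 and −0.66) it had r values below 0. These are descriptions over 8 lines whose genes were measured in the same libraries, with the same depth and scaling.

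**Figure D3:**
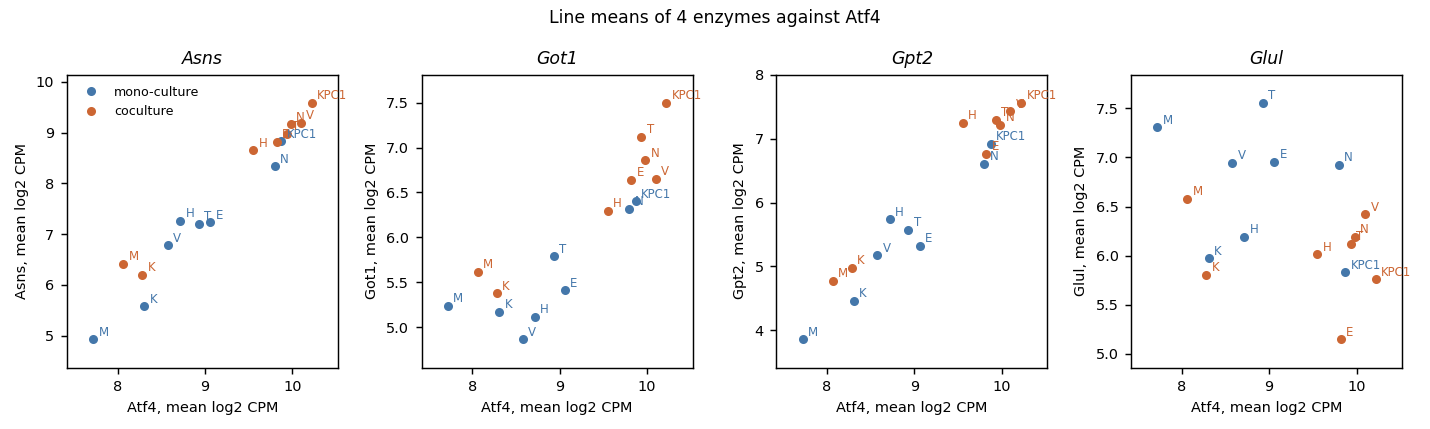
Mean log2 CPM of *Asns*, *Got1*, *Gpt2* and *Glul* (vertical axes, 1 panel each) against that of *Atf4* (horizontal axes), with 1 point a line and culture, each the mean of 4 libraries, blue for mono-culture and orange for coculture. *Asns* and *Gpt2* follow *Atf4* in both cultures, with M and K at the lower left, and *Glul* does not.

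*Atf4* itself ran from 217 ± 65.4 CPM in M to 946 ± 156 in KPC1 in mono-culture and from 271 ± 55.3 to 1193 ± 15.1 in the same lines in coculture. It rose by 0.61 ± 0.16 over the 8 lines (log2, adjusted p = 0.0109, edgeR's quasi-likelihood test), less than *Asns*. By line it rose in V (1.48 ± 0.18), T (0.95 ± 0.17), H (0.82 ± 0.17) and E (0.76 ± 0.17) and did not pass in M (0.32 ± 0.17), KPC1 (0.35 ± 0.17), N (0.14 ± 0.17) or K (−0.045 ± 0.17). In M, N and KPC1, *Asns* passed where *Atf4* did not, a difference between 2 genes that was not tested. Over the 8 lines the response of *Atf4* correlated with that of *Gpt2* at 0.986, of *Asns* at 0.934 and of *Got1* at 0.925.

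The same genes also moved together among the 4 libraries of one line. After the mean of each line and culture was taken off, r over 32 mono-culture libraries was 0.918 for *Asns* with *Got1*, 0.901 for *Asns* with *Gpt2* and 0.817 for *Asns* with *Atf4*, and over 32 coculture libraries 0.766, 0.844 and 0.847. *Glul* went against *Gpt2* (−0.68 in mono-culture and −0.27 in coculture) and *Asns* (−0.45 and −0.35), the latter in 6 of 8 lines in mono-culture. The mono-culture values of r rest mostly on clones N and T. *Glul* deviated most in replicates 2 (1.39) and 3 (−1.05) of N and replicate 4 of T (0.72), on the log2 scale. Mono-culture libraries with the replicate number 4 were the lowest of their line for *Gpt2* in 7 of 8 lines, for *Asns* in 6 and for *Got1* and *Atf4* in 5. Their *Asns* level was 0.563 times the mean of the other 3 libraries (median over lines), from 0.354 to 1.07. The labels do not say what the number marks. Without replicate 4, the response over 8 lines was 1.201 for *Asns*, 1.11 for *Gpt2* and 0.95 for *Got1* on the log2 scale, and these 3 still passed. Sample numbers in the labels form 2 series of 43 and 21 libraries, with all mono-cultured libraries of K in the second. Within the first, which leaves 7 lines, the response was 1.51 for *Asns*, 1.38 for *Gpt2*, 1.197 for *Got1* and −0.89 for *Glul*, and all 4 passed. Within the second, where 5 lines (H, K, M, T and KPC1) had both cultures, *Asns* (1.12 ± 0.16, adjusted p = 0.0144), *Gpt2* (1.04 ± 0.18, adjusted p = 0.0211) and *Got1* (0.78 ± 0.16, adjusted p = 0.0306) passed edgeR's quasi-likelihood test and *Glul* (−0.35 ± 0.18, adjusted p = 0.236) did not.

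**Figure D4:**
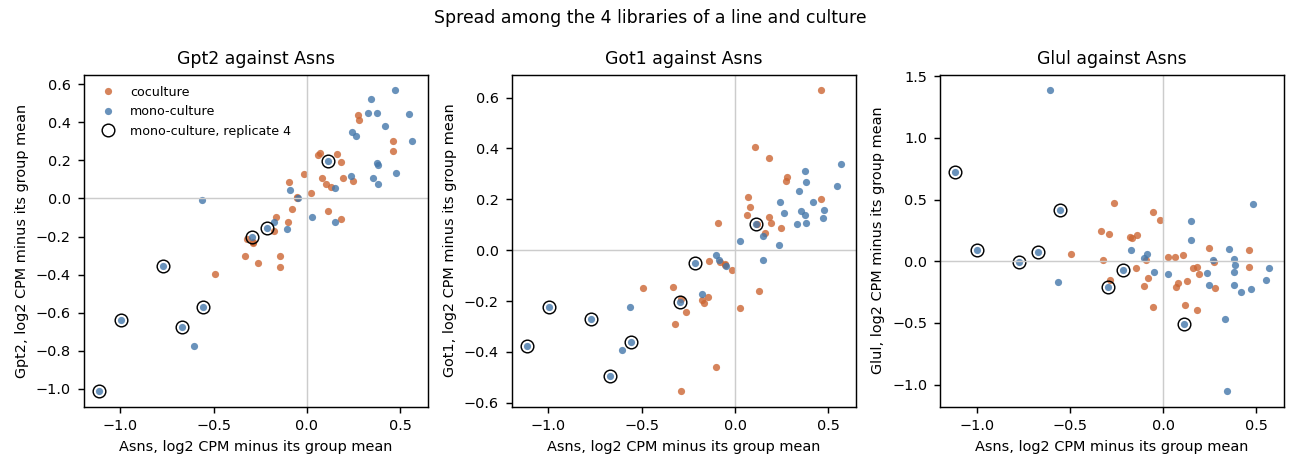
Log2 CPM of *Gpt2*, *Got1* and *Glul* in each library minus the mean of its line and culture (vertical axes), against the same for *Asns* (horizontal axes), with 64 points, blue for mono-culture, orange for coculture and black circles around mono-culture libraries of replicate 4. *Gpt2* and *Got1* rise with *Asns*, *Glul* tends the other way, and most circled libraries lie at the low end of *Asns*.

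The 3 genes most like each enzyme over the 8 mono-culture line means were sought among 9097 genes with a mean of at least 10 CPM. For *Asns* they were *Uqcrq* (r = 0.989), *Mthfd2* (0.988), a mitochondrial folate enzyme, and *Tomm40* (0.987), and *Atf4* ranked 21. For *Gpt2* they were *Taf15* (0.994), *Leprotl1* (0.990) and *Aldh18a1* (0.988), which makes the proline precursor, and for *Got1* *Lonp1* (0.992), *Cyb5r1* (0.971) and *Pfkp* (0.970). These 9 also had r between 0.899 and 0.988 over the coculture means. The genes most like the other 4 held less well in coculture. For *Glul*, *Mpdu1* (0.962 in mono-culture) fell to 0.314, *Tmem168* (0.958) to 0.551 and *Spr* (0.956) to 0.062. For *Asrgl1* they were *Itgb4* (0.964), *Exoc6* (0.944) and *Ralgapa2* (0.934), and for *Got2* *Trim45* (0.923), *Def8* (0.915) and *Rybp* (0.912). For *Glud1* they were a gene whose symbol is stored as a date (0.964), *Vps13c* (0.961) and *Phf1* (0.948). With 8 points and 9097 genes searched, such values are high by selection.

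Lists of related genes showed which neighbors of these enzymes moved in coculture over the 8 lines, beside a median log2 fold change of 0.0060 over all genes tested, of which 26.8% passed upward and 25.2% downward. Of *Atf4* and its well-known targets, 15 of 16 rose and none fell, with a median of 1.01, among them *Trib3* (1.496 ± 0.25), a pseudokinase induced by stress, *Slc7a5* (1.00 ± 0.16), a carrier of large neutral amino acids, and *Shmt2* (1.00 ± 0.17), which takes serine into the folate cycle. All 6 tRNA synthetases of asparagine, aspartate, glutamine and glutamate rose, with a median of 0.46, led by *Nars* (0.83 ± 0.15), *Nars2* (0.71 ± 0.13) and *Eprs* (0.69 ± 0.12). Of the other transaminases, 3 of 9 tested rose, a share near that of all genes, and none fell: *Bcat1* (1.41 ± 0.24), which acts on branched-chain amino acids, *Psat1* (1.03 ± 0.18) of serine synthesis and *Ccbl2* (0.51 ± 0.15). A few genes stand in more than 1 list.

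Of the enzymes that use the amide of glutamine or asparagine, 7 of 11 tested rose and 1 fell, with a median of 0.42, where 26.8% of all genes rose and 25.2% fell in the same fit. *Cad* (0.93 ± 0.086), which starts pyrimidine synthesis with aspartate, *Ctps* (0.81 ± 0.12), which makes CTP, and *Ppat* (0.42 ± 0.068), which starts purine synthesis, rose. *Gls2*, a glutaminase, fell (−0.45 ± 0.11). Of the malate-aspartate shuttle, to which *Got1* and *Got2* also belong, mitochondrial *Mdh2* rose (0.35 ± 0.061), cytosolic *Mdh1* fell (−0.55 ± 0.14) and the 3 carriers tested did not pass. Of the transporters, 7 of 10 tested rose and none fell, with *Slc38a1* (0.55 ± 0.13), a glutamine carrier, beside *Slc7a5*. Of the aspartate users, 4 of 7 tested rose and none fell, *Adssl1* (0.37 ± 0.092) among them.

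The largest fitted changes in these lists belonged to genes near absence in mono-culture. *Slc1a3*, a glutamate and aspartate carrier, had line means from 0 to 0.0288 CPM in mono-culture and from 0.205 to 1.395 in coculture, and *Ass1*, which joins aspartate to citrulline, from 0 to 0.656 and from 0.751 to 1.98. The fibroblast markers *Postn*, from at most 0.0499 CPM to between 38.2 and 73.0, and *Thy1*, from 0 to between 5.93 and 16.3, appeared in the same libraries. Whether these transcripts came from tumor cells was not tested. *Slc1a3* is counted above among the transporters that rose, and *Ass1* among the aspartate users that rose.

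**Figure D5:**
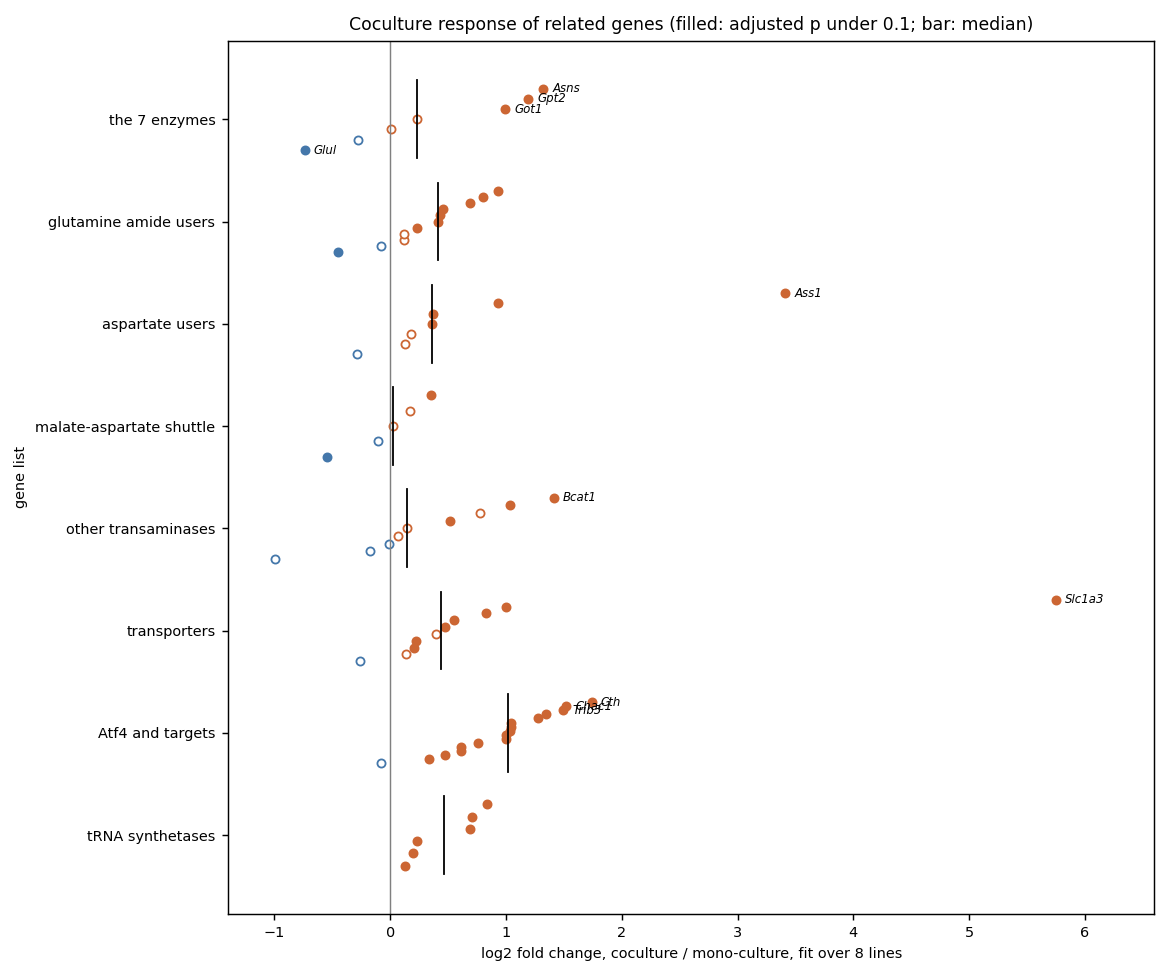
Log2 fold change of coculture over mono-culture in the fit over 8 lines (horizontal axis) for the 7 enzymes and for each gene of 7 related lists (vertical axis), with filled points past an adjusted p of 0.1 and black bars the medians. *Atf4* and its targets center near 1.01, the malate-aspartate shuttle near 0.027, and *Slc1a3* and *Ass1* at the right had almost no counts in mono-culture.

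Between the groups, no gene of these lists passed in the interaction of group and culture. There, 12 of the 16 genes of *Atf4* and its targets had an unadjusted p under 0.05 in edgeR's fit, as did 1214 of all 16172 genes. Of these 12, *Ddit4* had the smaller response in group 1 (−0.43 ± 0.19), and it is named for its sign after its value was seen. The median difference in response over the 16 was 0.86, beside −0.0044 over all genes tested.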

How the data were processed

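RNA was sequenced from 8 tumor lines in 2 cultures, with 4 libraries each. The authors deposited whole-number counts of reads per gene, without normalization, and RPKM values, by name reads per gene length and library total. These RPKM values did not follow exactly from the counts. For *Asrgl1* in cocultured K, replicate 3 had 25 counts of 15119474 and 0.339 RPKM, and replicate 2 had 26 of 14752872 and 0.302 RPKM. The reason was not tested. The submitters' processing notes name featureCounts, edgeR and mm10. The aligner, the annotation and the versions are not given in the sources used here. All columns were used (0 left out). The labels gave each library's line and culture, and the study gave the groups of clones.

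CPM was computed with edgeR 4.0.16 (R 4.3.3) after TMM normalization, and log2 CPM with a prior count of 0.5. Line differences, line responses and their interaction were fitted to single libraries. The response over 8 lines and comparisons of groups were fitted to summed counts of 4 libraries, so that lines are the replicates. All used edgeR's quasi-likelihood test after filterByExpr, Benjamini-Hochberg adjustment and a threshold of 0.1. Each fit was tested on simulated data, with 200 genes changed by 1 on the log2 scale. Apart from these changes, all libraries shared 1 mean per gene, unlike the lines studied here. Of the calls, 13.2% were false in the interaction of line and culture, above the threshold of 0.1. The share was 50% between groups in coculture, where 0.5% of changes were found, and at most 9.95% in the other fits that made calls. Related genes were named by a rule, up to 3 in each direction with the smallest p per list, with *Atf4* always. Some items named by the rule or the labels are not reported here.

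Alternatives were RLE or no normalization, DESeq2 1.42.0, limma 3.58.1 on log2(RPKM + 1) or (RPKM + 0.1), no filter, a threshold of 0.05, a replicate block, leaving out replicates or lines, and each series of library numbers alone, the second (18 libraries of 5 lines) added after seeing the data. The enzymes, lists and rules were chosen with earlier results of these data known. Protein sequences were not used here.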

Additional observations from a re-analysis of the deposited data

Results flagged for a closer look

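Among the 4 libraries of a line and culture, 1 library lay apart from the other 3 by Dixon's test in 3 groups. The library of clone H in mono-culture at 38.04 CPM stood above the others for *Got1*, as did that of clone K in mono-culture at 86.3 CPM for *Glul* and that of clone M in coculture at 36.7 CPM for *Gpt2*. With 126 groups tested and chance flagging about 1 in 20, some 6.3 would be flagged by chance.

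The response to coculture differed between the 8 lines for each enzyme by the interaction term of edgeR's quasi-likelihood F test. For *Got2* this was lost within the first series of sample numbers (adjusted p = 0.437, same test). The adjusted p was 5.53e-11 for *Asrgl1*, 3.35e-09 for *Glud1*, 3.76e-06 for *Got1*, 6.10e-05 for *Glul*, 8.53e-05 for *Gpt2*, 0.00134 for *Asns* and 0.00769 for *Got2*.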

How the results depend on the processing

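Over the 8 lines, *Asns* (log2 1.12 to 1.51), *Got1* (0.78 to 1.197) and *Gpt2* (1.03 to 1.38) kept their direction and passed under all 23 alternatives run, and *Glul* (−0.89 to −0.35) under 22, all but the second series of sample numbers, an alternative chosen after seeing the data. *Glud1* (−0.48 to −0.15) passed under 8. *Got2*, near 0, changed sign: −0.00678 with RLE or DESeq2, −0.016 with library totals, −0.00456 without the filter, −0.073 in the first series of numbers, −0.015 with single libraries, −0.018 without KPC1, −0.0388 to 0.0266 without 1 line and −0.0288 to 0.0186 without 1 replicate. Mono-cultured and cocultured libraries of a line with the same number deviated together (r over 0.1) in 23 of 32 pairs (median r 0.293), among them all 4 pairs in V, M and N but not in the other 5 lines. Between different lines, the median r of libraries with the same number was 0.110 in mono-culture and 0.141 in coculture. The labels do not say what a number marks, and not every pair within a line deviated together. A replicate block was therefore kept as an alternative, although some lines show a shared deviation. The block fits 1 effect per number to all lines alike, so a deviation shared within 1 line was not modeled in any test. With a replicate block, 44 of 56 responses by line passed in place of 40, *Got2* stood at −0.016 over 8 lines, and the group difference in *Asns* was −0.014. Treating single libraries as samples, with or without the block, gave 2 enzymes that differed between the groups in mono-culture, 1 in coculture and 5 in response, where none passed with lines as replicates. Between the groups in mono-culture, *Asns* turned to −0.036 with library totals, −0.15 in the first series and −0.022 with single libraries, and ran from −0.32 to 0.84 without 1 clone and from −0.125 to 0.0879 without 1 replicate. With limma on RPKM plus 1 or 0.1, *Gpt2* turned to 0.17 or 0.25 and *Got2* to −0.00116 or −0.00179. Without 1 clone, *Gpt2* ran from −0.38 to 0.62, *Got2* from −0.11 to 0.13 and *Asrgl1* from −1.33 to 0.043. In coculture *Got2* turned to 0.000881 without the filter and 0.042 in the first series, and ran from −0.093 to 0.077 without 1 clone and −0.042 to 0.031 without 1 replicate. There *Asrgl1* ran from −0.051 to 0.996, *Got1* from −0.13 to 0.44 and *Glul* from −0.53 to 0.050 without 1 clone. For the difference in response, *Got2* turned to 0.069 in the first series and ran from −0.083 to 0.049 without 1 clone and −0.055 to 0.013 without 1 replicate, and *Glul* ran from −0.296 to 0.51 and from −0.0297 to 0.112. Without 1 replicate, 31 to 38 responses by line passed. The interaction of line and culture for *Got2* was lost in the first series (adjusted p = 0.437, edgeR's quasi-likelihood F test). Without 1 replicate its adjusted p ran from 0.0255 to 0.0922 by the same test. The causes were not tested. Depth limits *Asrgl1* in K and E most.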
